A study of Cochliomyia hominivorax with 18 samples.

Results

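The deposited table lists predicted transcripts under gene numbers, and 180 of its 21161 gene numbers had 3 or more transcripts listed. These multi-transcript genes were chosen by the number of listed transcripts only, with no use of counts. They comprised 604 of the 22420 transcripts: 129 genes listed 3, 41 listed 4, 7 listed 5 and 3 listed 6. The question was how each gene's counts were divided among its transcripts, and whether the leading transcript differed with life stage or tetracycline.

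Midgut RNA came from the New World screwworm, Cochliomyia hominivorax, a blow fly whose larvae feed on living tissue of warm-blooded animals. The 18 poly(A)-selected libraries form 6 groups of 3: larval and adult midguts of production flies without tetracycline (control), while reared with it (on-Tc) and after its removal (post-Tc). Strain, sex, age, dose and the time since removal are not given in the labels, nor whether the 3 libraries of a group are separate biological samples. The p-values below therefore cover the variation among these libraries, which may be technical. Library totals ran from 19158409 to 79783813 counts.

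Alternative transcripts of a gene arise through alternative splicing, start sites or polyadenylation sites, and can differ in the protein encoded or in the untranslated ends. The midgut secretes digestive enzymes and absorbs nutrients, and in Drosophila the larval midgut is replaced by an adult one during metamorphosis. Tetracycline blocks protein synthesis on bacterial ribosomes and is used to silence conditional transgenes in insect strains. The table pairs no gene names with its gene numbers, so no role can be given to any gene below and midgut markers could not be checked. In midgut tissue as a whole, a change in the number of cells of a type and a change in RNA per cell cannot be told apart.

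Most of the listed transcripts received no counts. Of the 604 transcripts, 405 (67.1%) had 0 counts in all 18 libraries. The corresponding share was 53.2% for the 1670 transcripts of the 835 genes with 2 listed, and 12.1% for the 20146 genes with a single listed transcript. All transcripts were at 0 in 55 of the 180 genes (30.6%), close to the 29.7% of genes with 2 listed. A further 67 genes had counts on 1 transcript, 44 on 2, 12 on 3 and 2 on 4, and no gene had counts on 5 or 6. How reads in sequence shared by transcripts of a gene were counted is not given in the sources used here. The shares below are therefore shares of the counts assigned to each transcript, with no correction for transcript length, and are not proportions of molecules.

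**Figure D1:**
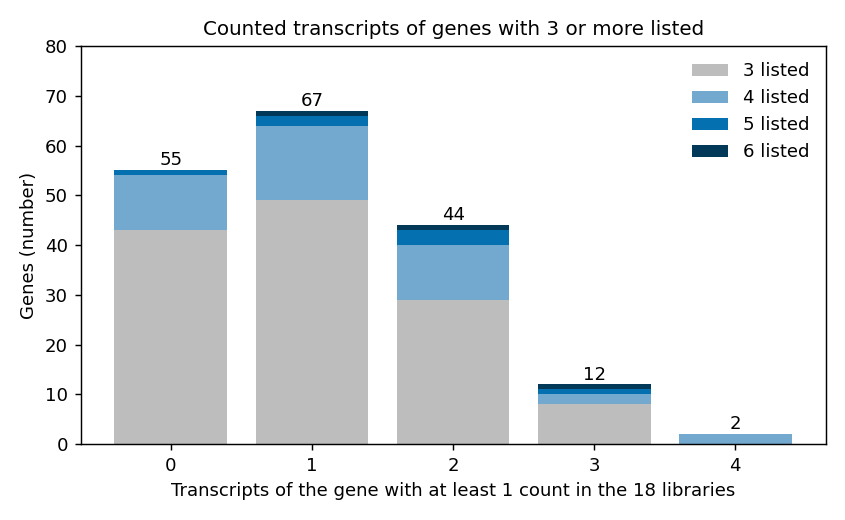
Number of genes (vertical axis) by how many of their listed transcripts had at least 1 count in the 18 libraries (horizontal axis), with colours for the number of listed transcripts. The tallest bars are the 55 genes at 0 and the 67 genes with 1 counted transcript; 12 genes had 3 counted transcripts and 2 had 4.

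The counts that were assigned fell on few genes. The multi-transcript genes together held 372809 counts, of which g18072 alone held 52.2% and the 10 most counted genes 88.3%. Their share of a library's counts was 0.0564% ± 0.0108 in larvae and 0.0327% ± 0.00484 in adults (SD, n = 9 each), with ranges of 0.0425% to 0.0739% and 0.0239% to 0.0397% that did not overlap. Without g18072 the shares were 0.0217% ± 0.00408 in larvae and 0.0222% ± 0.00406 in adults, with overlapping ranges. Median level per gene was 0.0241 CPM (counts scaled by TMM to CPM, mean of 18 libraries), against 0.0168 for genes with 2 listed transcripts and 0.597 for those with a single listed transcript.

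A gene was taken as measurable in a group when each of its 3 libraries held at least 20 counts of it. By this rule 39 of the 180 genes were measurable in at least 1 group, and 19 (10.6%) in all 6, against 12.8% of genes with 2 listed transcripts and 38.4% of those with a single listed transcript. The number per group ran from 24 in on-Tc larvae, post-Tc larvae and on-Tc adults to 35 in control larvae. The other 86 genes with counts were measurable in no group, with a median of 29 counts over all 18 libraries together and a highest total of 469.

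In the measurable genes the counts mostly sat on a single transcript. The leading transcript, the one with the highest mean share over the libraries of the measurable groups, held more than 95% of the gene's counts in 23 of the 39 genes, 90% to 95% in 2 and less in 14, with a median of 97.8%. In 13 of the 39 it was the only transcript with counts. It was transcript .t1 in 13 genes, .t2 in 7, .t3 in 15 and a higher number in 4, with 3 or more transcripts listed in every gene. Among the 19 genes measurable in all 6 groups the median leading share was 98.3% and 12 exceeded 95%. The corresponding values for 107 genes with 2 listed transcripts were 98.8% and 69 genes.

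The most abundant genes show this form. g13251 had 3 listed transcripts, and all of its 29505 counts were on .t2. None fell on .t1 or .t3, which allows them together a share of up to 0.0102% (3 counts of the total, counting error only). g18072, the most counted gene, had 4 listed transcripts, all with counts, and its .t2 held 97.8% ± 1.48 over the 18 libraries (SD). Its .t1 had 0 to 5 counts per library.

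The 3 genes with 6 listed transcripts were g14593, g17938 and g19476, and their counts ran from 17 to 613 over all 18 libraries. g17938 had 26 counts in all, on .t1 only, and g19476 had 17, on .t3 and .t4. g14593 had 613 counts and was measurable in control larvae, on-Tc adults and post-Tc adults. Over those 9 libraries its .t5 led with 70.9% ± 6.85 (SD), and .t2 and .t6 held the rest. Those libraries held 20 to 69 counts of the gene.

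Only g13255 had at least 3 transcripts at 5% or more of its counts among the 19 genes measurable throughout. All 4 listed transcripts were counted, and the effective number of transcripts (the exponential of the Shannon entropy of the mean shares) was 3.37. In larvae .t1 held 50.5% ± 6.52, .t4 30.7% ± 7.20, .t3 9.59% ± 2.69 and .t2 9.22% ± 2.32. In adults the means were 41.5% ± 6.42 for .t1, 32.1% ± 5.24 for .t4, 12.7% ± 3.49 for .t3 and 13.7% ± 5.27 for .t2 (SD, n = 9 in each stage). The order of .t1 and .t4 was the same in both stages on average, and .t2 and .t3 did not differ beyond their spread. The gene's level was 22.3 ± 5.90 CPM in larvae and 23.0 ± 8.83 in adults, and none of its 4 transcripts passed the edgeR level test between stages (FDR 0.128 to 0.641).

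The order of the transcripts of g13255 was not fixed in every library. The share of .t1 was 52.5%, 55.7% and 48.7% in control larvae, 54.9%, 47.7% and 56.6% in on-Tc larvae, and 38.6%, 56.7% and 42.7% in post-Tc larvae. It was 33.1%, 46.5% and 45.3% in control adults, 37.4%, 30.3% and 49.4% in on-Tc adults, and 44.0%, 43.1% and 44.2% in post-Tc adults. The lowest values were in adults and the ranges of the stages overlapped. Transcript .t4 led in 2 of the 18 libraries. These were post-Tc larvae 1, with 456 of 1102 counts (41.4%), and on-Tc adults 2, with 161 of 376 (42.8%). The share of .t1 was lower by 8.98 percentage points in adults (exact permutation test over 9 against 9 libraries, two-sided, unadjusted p = 0.0103). The edgeR test of transcript usage described below, adjusted over all genes tested, did not call the gene (FDR = 0.867).

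**Figure D2:**
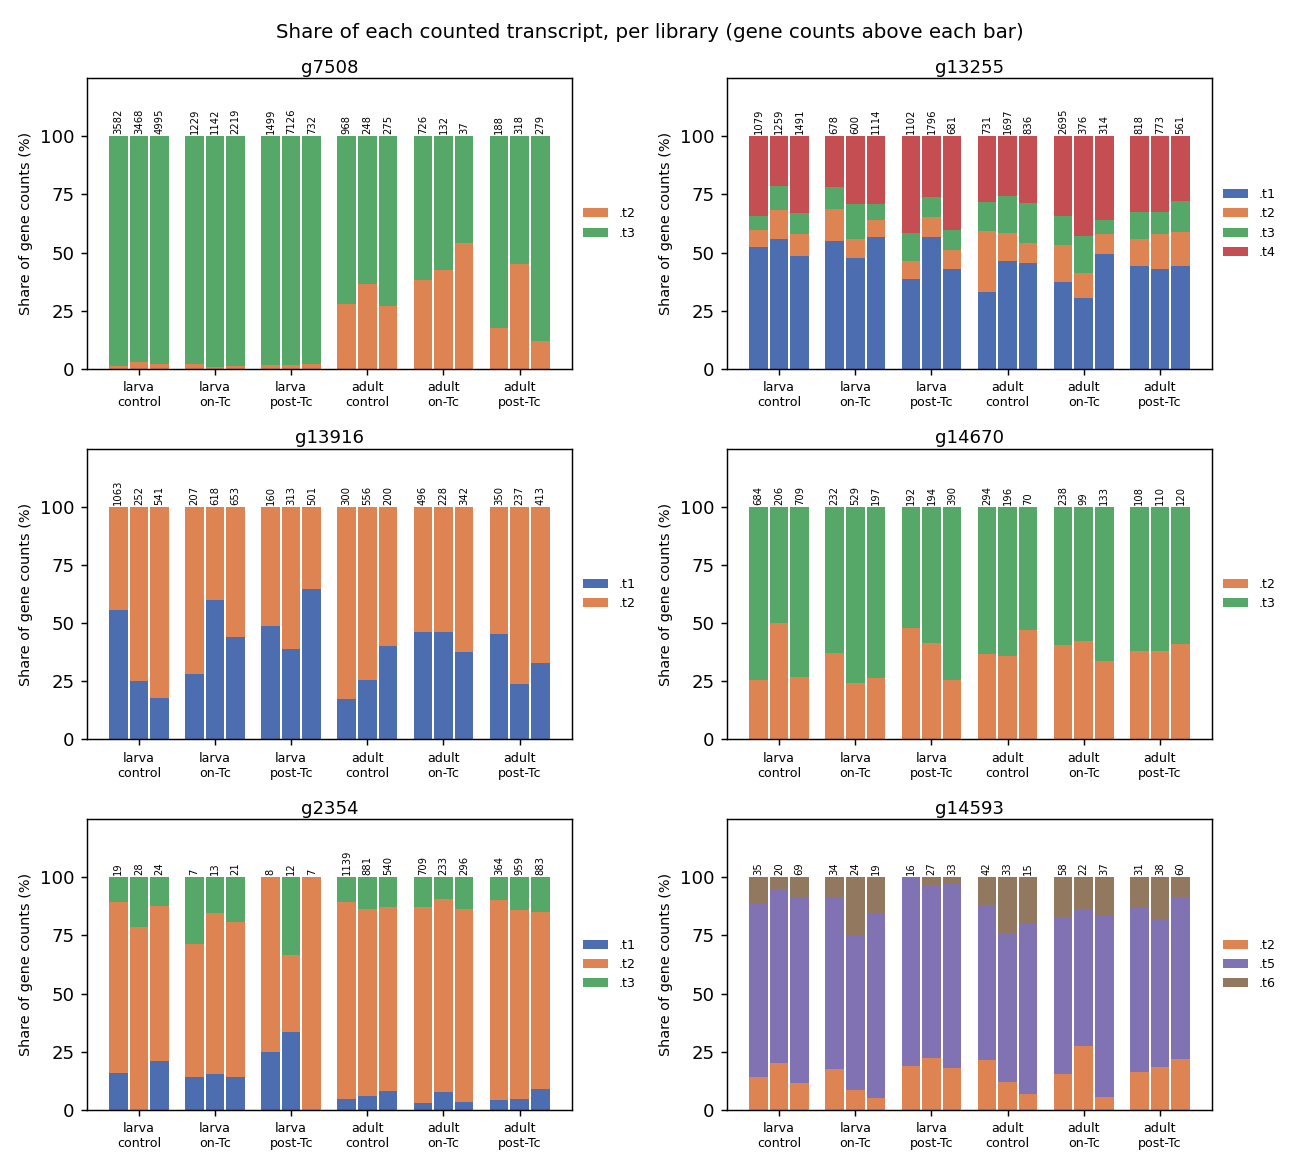
Share of a gene's counts held by each counted transcript (vertical axis, percent) in each of the 18 libraries, grouped by stage and treatment, for 6 genes whose counts were divided; the number above a bar is the gene's counts in that library. In g7508 the .t2 part is at most 2.85% in every larval library and 11.8% to 54.1% in adults, while g13255 keeps 4 parts in all libraries and g14593 and larval g2354 rest on few counts.

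Few genes changed their leading transcript between groups. Of the 39 measurable genes, 13 had counts on only 1 transcript, so no other transcript could lead. Counting these, 35 of the 39 had the same leader in every library of their measurable groups. The exceptions were g7508, g13255, g13916 and g14670, all measurable in the 6 groups. In the last of these the only deviation was a tie, 103 counts each for .t2 and .t3 in control larvae 2. Across the 9 pairs of groups compared (larva with adult under each treatment, and the 3 treatment pairs in each stage), 20 to 25 genes could be compared per pair. These included genes with only 1 counted transcript. Only g13916 had different group leaders, in the 3 pairs that include post-Tc larvae. At this minimum of 20 counts no gene showed a clear change, meaning the same leader in all 3 libraries of each group and a different leader between the groups. Taken over the 9 libraries of each stage, none of the 19 genes measurable in all 6 groups had a different leader in adults and larvae. In 7 of these 19 only 1 transcript was counted, so their leader could not differ.

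At a lower minimum of 10 counts per library g4140 gave a clear change between post-Tc larvae and post-Tc adults. Its group leader also differed between on-Tc larvae and on-Tc adults, and in adults between control and both on-Tc and post-Tc. None of these further changes was clear. This gene had .t1 and .t3 counted of 3 listed, was measurable at 20 counts only in post-Tc larvae, and is named after its values were seen. In post-Tc larvae .t1 had 20, 27 and 15 counts and .t3 had 8, 21 and 6. In post-Tc adults .t1 had 15, 4 and 9 and .t3 had 16, 14 and 26, so .t1 led all 3 larval and .t3 all 3 adult libraries, by a single count in post-Tc adults 1. The share of .t1 over all treatments was 58.8% ± 13.3 in larvae and 45.9% ± 19.9 in adults (SD, n = 9 each), with overlapping ranges, and the leader varied within the control and on-Tc groups of both stages. The edgeR usage test between stages, described below, did not call the gene (FDR = 0.992).

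g13916 had 5 listed transcripts, of which only .t1 and .t2 were counted. It was singled out after its values were seen. The share of .t2 was 44.2%, 75.0% and 82.3% in control larvae, 72.0%, 40.1% and 56.2% in on-Tc larvae, and 51.3%, 61.3% and 35.5% in post-Tc larvae. In adults it was 82.7%, 74.5% and 60.0% (control), 53.8%, 53.9% and 62.3% (on-Tc), and 54.9%, 76.4% and 67.3% (post-Tc). Every adult library was led by .t2. The larval libraries were divided within each treatment, with .t1 leading in control 1 (593 of 1063 counts), on-Tc 2 (370 of 618) and post-Tc 3 (323 of 501). The stage means of 57.5% ± 16.4 in larvae and 65.1% ± 10.7 in adults differed by less than the spread between libraries (exact permutation test, two-sided, p = 0.261), and the usage test gave FDR = 0.805 in edgeR.

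g14670, also chosen after its values were seen, had .t2 and .t3 counted of 3 listed. The share of .t3 ran up to 75.6% in larvae (median 73.1%) and 52.9% to 66.2% in adults (median 61.8%). The 3 lowest larval shares were the tie in control 2, 52.1% in post-Tc 1 and 58.8% in post-Tc 2. These libraries also stood apart from the other 6 larval libraries over all transcripts, on a first principal component with 33.1% of the variance. The part of that component in the spread of g14670 was not tested. Both transcripts fell in adults, with log2 differences of -1.15 ± 0.36 for .t3 and -0.62 ± 0.24 for .t2 (SE; edgeR FDR = 0.0150 and 0.0441), and the usage test did not call the gene (FDR = 0.992).

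Transcript usage was then tested across all genes with at least 2 transcripts kept by the low-count filter. The test (edgeR diffSpliceDGE with Simes p-values per gene, Benjamini-Hochberg adjusted, called at FDR under 0.05) asks whether a transcript's change differs from that of the rest of its gene. Between adults and larvae 76 genes could be tested. Of these 15 (19.7%) were called, and 2 of the 13 multi-transcript genes (15.4%), g7508 and g18072, were among them. The other 11 had FDR of 0.192 (g2354) or higher. The other 167 of the 180 genes had fewer than 2 transcripts past the filter and were not tested.

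g7508 had the largest difference in shares of the 2 called genes. Of its 3 listed transcripts .t2 and .t3 were counted. In larvae .t3 held 98.8%, 97.1% and 97.9% of the counts in controls, 98.0%, 99.2% and 99.0% in on-Tc and 98.5%, 98.5% and 98.1% in post-Tc libraries. In adults it held 72.1%, 63.7% and 73.1% in controls, 62.0%, 57.6% and 45.9% in on-Tc and 82.4%, 54.7% and 88.2% in post-Tc libraries. Every adult library was below every larval one, and the adult libraries were spread more widely. The mean share fell by 31.7 percentage points, from 98.4% ± 0.631 in larvae to 66.6% ± 13.5 in adults (SD, n = 9 each). An exact permutation test gave p = 4.11e-05 (two-sided), the smallest value that its 48620 splits can give, and the edgeR usage test gave FDR = 3.06e-06.

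The change in g7508 came from opposite changes of the transcripts. The counts of .t3 were 3540, 3369 and 4891 in control larvae, 1205, 1133 and 2196 in on-Tc larvae and 1476, 7020 and 718 in post-Tc larvae. In adults they were 698, 158 and 201 (control), 450, 76 and 17 (on-Tc), and 155, 174 and 246 (post-Tc). The counts of .t2 were 9 to 106 in larvae (median 24) and 20 to 276 in adults (median 74). In CPM .t3 was 52.4 ± 28.5 in larvae and 6.10 ± 4.55 in adults with no overlap, while .t2 was 0.911 ± 0.622 and 2.64 ± 1.84 with overlapping ranges. In edgeR .t3 fell by 3.19 ± 0.45 on the log2 scale (SE; FDR = 3.27e-05), and .t2 rose by 1.61 ± 0.46 (FDR = 0.00871). Transcript .t3 still led in 17 of the 18 libraries. The exception was on-Tc adults 3, where .t2 had 20 of only 37 counts (54.1%, Wilson 95% interval 38.4% to 69.0%, counting error only), so which transcript led there was not detectable at this depth. The lead of .t3 was likewise not resolved in on-Tc adults 2 (57.6%, interval 49.0% to 65.7%) and post-Tc adults 2 (54.7%, 49.2% to 60.1%).

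In g18072 the difference in shares was small, with a lower share of the leading transcript and higher mean shares of .t3 and .t4 in adults. The share of .t2 was 98.9%, 99.5% and 99.0% in control larvae, 98.9%, 98.5% and 98.9% in on-Tc larvae and 98.4%, 99.3% and 98.3% in post-Tc larvae. In adults it was 97.1%, 97.3% and 96.8% (control), 96.8%, 95.6% and 98.8% (on-Tc), and 97.2%, 96.2% and 94.0% (post-Tc). The stages overlapped only through on-Tc adults 3. The mean fell by 2.20 percentage points, from 98.9% ± 0.384 to 96.7% ± 1.33 (exact permutation test, two-sided, p = 0.000165). The share of .t4 was 0.507% ± 0.249 in larvae and 2.19% ± 1.07 in adults, and that of .t3 was 0.622% ± 0.269 and 1.11% ± 0.519.

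The level of g18072.t2 was lower in adults while that of .t4 did not pass the test. In CPM .t2 was 413, 315 and 362 in control larvae, 318, 326 and 341 in on-Tc larvae and 268, 370 and 283 in post-Tc larvae. Adults had 45.3, 111 and 73.9 (control), 127, 120 and 139 (on-Tc), and 121, 87.1 and 86.4 (post-Tc), all below the lowest larval library. The edgeR estimate fell by 1.75 ± 0.16 on the log2 scale (FDR = 4.98e-07). Transcript .t4 had 1.67 ± 0.709 CPM in larvae and 2.26 ± 1.25 in adults (log2 difference 0.33 ± 0.31, edgeR FDR = 0.386). Transcript .t3 fell by 0.89 ± 0.34 (FDR = 0.0378), a call that was lost in 11 of the 18 fits that left out 1 library (FDR 0.0520 to 0.0944).

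**Figure D3:**
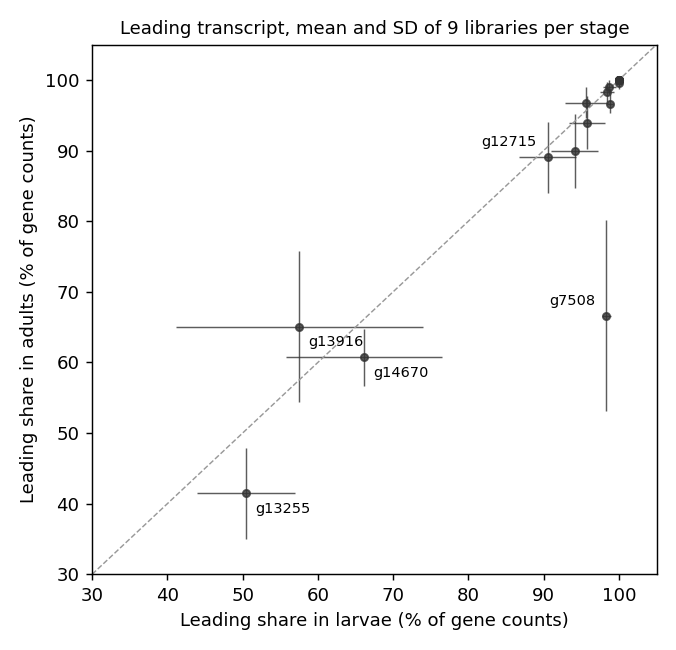
Mean share of the leading transcript in larvae (horizontal axis, percent of the gene's counts) and in adults (vertical axis) for the 19 genes measurable in all 6 groups, with bars for the SD of 9 libraries per stage; the dashed line marks equal shares. Most genes lie near the upper right corner, g7508 lies far below the line at 98.4% in larvae and 66.6% in adults, and the bars of g13916 and g14670 cross the line.

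The levels of single transcripts were tested in the same 18 libraries, as the mean of the adult groups minus that of the larval groups. After the filter 71 of the 604 transcripts could be tested, the other 533 having too few counts, and 30 of them, from 25 genes, passed FDR under 0.05 in edgeR (42.3%), against 52.6% of all 12599 transcripts tested. Of the 71 tested, 18 were called higher in adults and 12 lower, against 3323 (26.4%) and 3306 (26.2%) of all 12599 tested. In 11 of the 30 the libraries of the stages did not overlap in CPM, 7 higher and 4 lower in adults. These 11 were 15.5% of the 71 tested, against 15.2% of all transcripts tested that were called without overlap (8.08% higher and 7.17% lower). The median absolute log2 difference was 0.59 in the multi-transcript genes and 0.66 in all transcripts tested.

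The largest increases in adults with no overlap between stages were those of g2354.t2 and g2354.t3. All 3 listed transcripts of g2354 were counted, and all 3 were higher in adults. The counts of .t2 were 14, 22 and 16 in control larvae, 4, 9 and 14 in on-Tc larvae and 6, 4 and 7 in post-Tc larvae. In adults they were 965, 707 and 427 (control), 598, 193 and 246 (on-Tc), and 314, 781 and 674 (post-Tc). Every adult library was far above every larval one. On the log2 scale .t2 rose by 6.02 ± 0.31 (SE; edgeR FDR = 1.16e-09), .t3 by 5.36 ± 0.46 (FDR = 2.35e-07) and .t1 by 4.36 ± 0.52 (FDR = 6.40e-06). The gene as a whole had 0.306 ± 0.122 CPM in larvae and 17.8 ± 8.48 in adults.

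The shares within g2354 could be measured only in adults. There .t2 held 82.0% ± 3.10, .t3 12.4% ± 1.94 and .t1 5.60% ± 2.13 (SD, n = 9). In larvae the gene had 7 to 28 counts per library, and .t2 had the highest mean share, 68.9% ± 17.8. The usage test did not call the gene (FDR = 0.192), although 2 of 28 alternatives did, and FDR over the alternatives ran from 0.0458 to 0.993.

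The largest decrease with no overlap was that of g7508.t3, given above, followed by g3936.t3. This was the only counted transcript of 3 listed in g3936, with none of the larval 1206 counts on the others, which allows them a share of up to 0.249%. Its counts were 239, 95 and 143 in control larvae, 66, 287 and 92 in on-Tc larvae and 76, 107 and 101 in post-Tc larvae. Adults had 10, 75 and 13 (control), 70, 16 and 25 (on-Tc), and 27, 15 and 22 (post-Tc). Since library totals differ, the raw counts overlapped while the CPM did not, at 1.75 to 6.14 in larvae and 0.231 to 1.15 in adults. Its edgeR log2 difference was -1.95 ± 0.34 (SE; FDR = 0.000227).

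**Figure D4:**
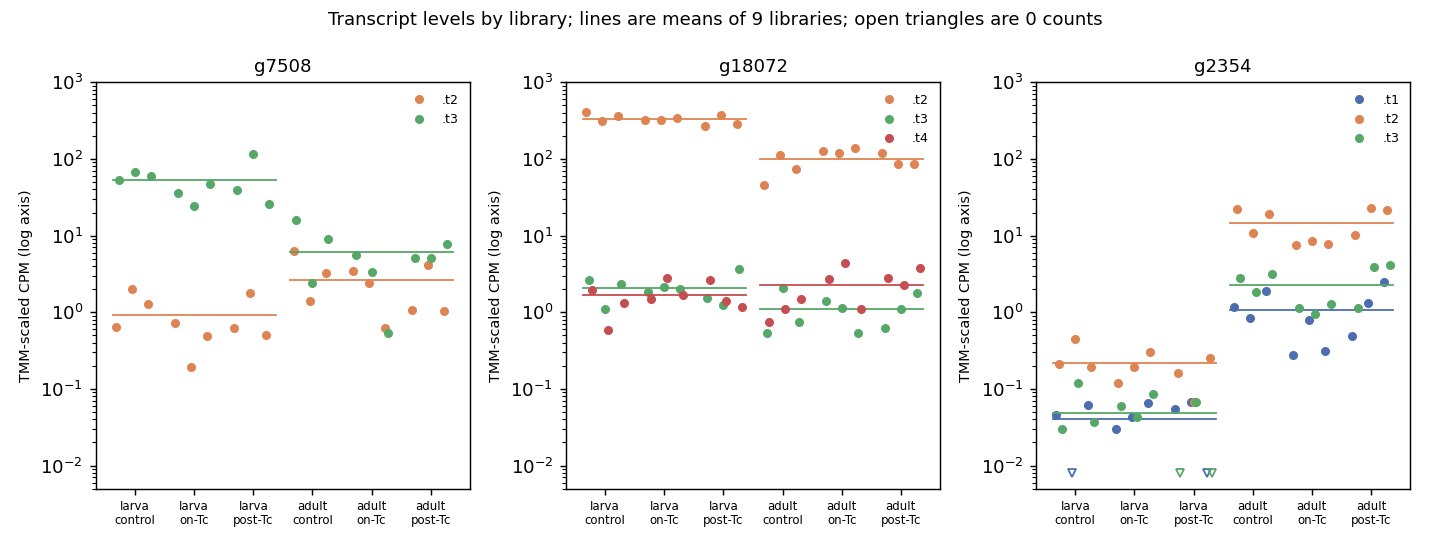
TMM-scaled CPM (log axis) of each tested transcript of g7508, g18072 and g2354 in the 18 libraries, with horizontal lines at the mean of the 9 libraries of a stage and open triangles for libraries with 0 counts. In g7508 the .t3 and .t2 points lie far apart in larvae and close together in adults, in g18072 only .t2 drops clearly below its larval points, and in g2354 all 3 transcripts are higher in adults.

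Tetracycline was not accompanied by a called change in transcript usage. In larvae 68 genes could be tested, 10 of them multi-transcript genes, and 0 were called in on-Tc against control, post-Tc against control and post-Tc against on-Tc (0% of all genes in each). No multi-transcript gene had an unadjusted p under 0.05 in larvae, where the smallest was 0.308 (edgeR). In adults 58 genes were tested, 10 of them multi-transcript genes, and again 0 were called in the 3 comparisons (0% of all genes in each). There g4398, named after its values were seen, had an unadjusted p of 0.0301 in on-Tc against control (edgeR, FDR = 0.873). No multi-transcript gene fell under 0.05 in the other 2 comparisons. The tests of whether the tetracycline effect on usage differed between stages also called none of the 13 multi-transcript genes (0% of 76 genes, on-Tc and post-Tc). By every other usage test tried the count of multi-transcript genes called for tetracycline was also 0. With 3 libraries per group these tests could miss a change in usage, and their power was not measured.

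Transcript levels gave no call for tetracycline either. In larvae 0 of 61 transcripts passed FDR under 0.05 in each of the 3 comparisons (edgeR; 0% of all 11584 tested). Unadjusted p-values under 0.05 numbered 0 for on-Tc against control, 4 for post-Tc against control and 7 for post-Tc against on-Tc. In adults 0 of 58 passed, where 0.236% of all 11435 transcripts were called in on-Tc against control, 0% in post-Tc against control and 0.437% in post-Tc against on-Tc. Unadjusted p-values under 0.05 numbered 10, 3 and 9 in that order. The corresponding numbers over all transcripts tested were not counted in either stage, so the numbers in these genes have no background. The median log2 difference of the 58 was -0.43 in on-Tc against control and 0.36 in post-Tc against on-Tc, where all transcripts tested had -0.06 and 0.06. These comparisons share the on-Tc libraries.

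Nearest to a call was g6607.t4, which held 98.3% ± 1.14 of the counts of its gene. It was named here after its values were seen. In adults it had 4.90, 4.95 and 7.12 CPM in controls, 2.58, 2.01 and 2.24 in on-Tc and 5.92, 6.62 and 5.44 in post-Tc libraries. The on-Tc libraries lay below all other adults, and control and post-Tc libraries overlapped. On-Tc against control was -1.32 ± 0.24 on the log2 scale (SE; edgeR FDR = 0.0642), and post-Tc against on-Tc was 1.40 ± 0.24 (FDR = 0.0534). DESeq2 gave adjusted p of 9.50e-05 and 2.34e-05 for the same comparisons, the lowest of 13 alternatives each, whose highest were 0.209 and 0.185. In larvae the group means were 4.21 ± 1.15 CPM in controls, 4.03 ± 1.92 in on-Tc and 5.33 ± 2.52 in post-Tc (SD, n = 3), with overlapping libraries.

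The same order of groups was seen in g2354.t2 and g6140.t3, also chosen after their values were seen. g2354.t2 had 22.3, 10.9 and 18.99 CPM in control adults, 7.53, 8.41 and 7.77 in on-Tc adults and 10.2, 22.7 and 21.3 in post-Tc adults. Its log2 difference was -1.15 ± 0.35 in on-Tc against control (SE; edgeR FDR = 0.137) and 1.20 ± 0.35 in post-Tc against on-Tc (FDR = 0.115). g6140.t3, the only counted transcript of 4 listed, had 12 to 28 counts in control, 4 to 8 in on-Tc and 22 to 36 in post-Tc adults. Its log2 differences were -1.55 ± 0.56 (FDR = 0.180) and 2.32 ± 0.57 (FDR = 0.0889). In both transcripts the on-Tc libraries lay below all control and post-Tc libraries, and neither difference passed the edgeR test. How many of all transcripts tested had the on-Tc adults lowest, as in these and g6607.t4, was not counted. Among all 58 transcripts DESeq2 called 2 in on-Tc against control, g6607.t4 and g2354.t2, and 5 in post-Tc against on-Tc, while limma-voom called 0 in both. Over all 11435 transcripts tested, DESeq2 called 1141 and 1304 in these comparisons, and limma-voom called 23 and 59.

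**Figure D5:**
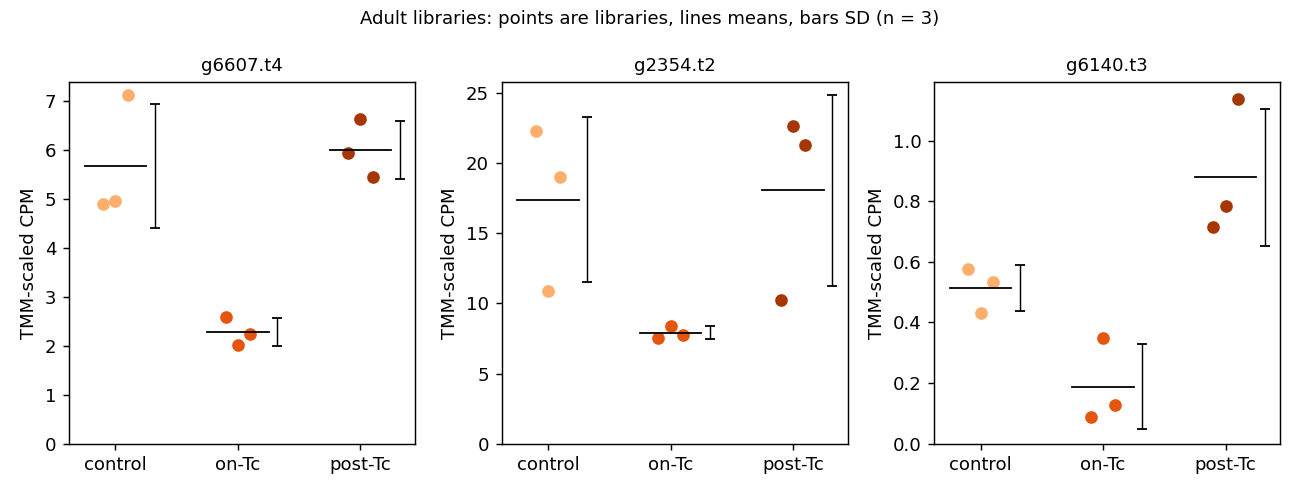
TMM-scaled CPM (vertical axis, from 0) of g6607.t4, g2354.t2 and g6140.t3 in the 3 control, 3 on-Tc and 3 post-Tc adult libraries, with a line at each group's mean and a bar for its SD. The on-Tc points lie below the control and post-Tc points in each panel, and none of these differences passed the edgeR test. The 3 transcripts were chosen after their values were seen, and the share of all transcripts with this order was not counted.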

How the data were processed

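Poly(A)-selected midgut RNA was sequenced in 18 libraries. The authors deposited raw counts per predicted transcript, judged from whole numbers and unequal column sums. Per the submitters' processing notes, the tools were Trimmomatic, STAR, featureCounts and DESeq2, with no version stated. For the genome build, annotation, strand setting and treatment of reads shared by transcripts, the sources used here give nothing, so the division of counts among transcripts of a gene is uncertain. Low counts were more often even than odd, and halved counts were therefore tried.

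Gene numbers were read from the ID before the transcript suffix. Deposited counts were analysed in R 4.3.3 with edgeR 4.0.16. Transcripts were kept by filterByExpr (minimum count 10, minimum total 15), scaled by TMM, and tested on the whole table with glmQLFit and glmQLFTest for levels and diffSpliceDGE for usage, adjusted by Benjamini-Hochberg and called at FDR 0.05. Stage and interaction fits used 18 libraries, and tetracycline fits the 9 of a stage. Standard errors came from the F statistic. Single shares were compared by exact permutation with Python 3.11.15, with no adjustment for the number of genes compared. Scripts were tested on simulated data with known changes between stages. The tetracycline and interaction fits were not simulated. Floors of 3 counts and intervals cover counting error only.

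Genes were named for the most listed transcripts, the highest CPM, called usage changes, the most even division and the largest level changes between stages without overlap; genes named outside this rule are marked as such in the text. The members, the rule and the tests were chosen with earlier results of these data known. Lists by gene name could not be used.

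Alternatives were DESeq2 1.42.0, limma 3.58.1 (voom, diffSplice and log ratios), an F test per gene, RLE size factors, other filters, halved counts, the replicate number as a block, the library-name digit, only controls, all 18 libraries for tetracycline usage, other count minimums and leaving out each library. Leaving out 3 larval libraries together, and the test of g13916, were added after seeing the data.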

Additional observations from a re-analysis of the deposited data

Results flagged for a closer look

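In 2 of the 22 sets of libraries examined (larvae or adults, for named transcripts), a library lay far from the others of its stage by Dixon's test at the 95% level, which chance gives in about 1 in 20 sets. The level of g7508.t3 in post-Tc larvae 2 was 117.564 CPM, against 24.2 to 67.7 CPM in the other 8 larval libraries. The share of .t3 in that library was 98.5%, inside the range of the other larvae. The level of g3936.t3 in on-Tc larvae 2 was 6.1362 CPM, against 1.75 to 3.62 CPM in the other 8. Both lay on the larval side of the stage difference.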

How the results depend on the processing

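The usage call of g7508 and g18072 between stages was kept by RLE size factors, other filters, halved counts, the library-name digit and voom with diffSplice. It was also kept without any 1 library (2 genes called each time, where 14 to 17 of all 83 to 86 genes were called). Without control 2, post-Tc 1 and post-Tc 2 larvae it was kept too (2 of 17), with the calls over all genes not counted. An F test per gene and limma on log ratios called 4 of 13, adding g2354 and g20346, which was chosen after its values were seen. These tests called 29 and 32 of all 76 genes. With only the 6 control libraries 1 of 11 was called, g7508, against 5 of all 69 genes, while g18072 had FDR = 0.188. In those controls the leading share differed by -28.3 points in g7508, -2.07 in g18072 and -10.7 in g13255, each with p = 0.1 by the exact permutation test, the smallest that 3 against 3 allow. Without 1 library the differences ran from -34.4 to -29.1 in g7508, -2.47 to -1.87 in g18072, -10.5 to -7.58 in g13255 and 4.78 to 10.6 in g13916. Level calls between stages numbered 23 to 29 without 1 library, 26 of 88 without the 3 larval libraries and 26 to 33 under the other settings but the block. Without the 3 larval libraries the calls over all transcripts were not counted. Over all transcripts the calls were 6266 to 6831 of 12940 to 13063 tested without 1 library. Under those other settings they were 6308 to 7064 of 11386 to 18698. Replicate numbers did not pair the libraries (correlations of deviations -0.363 to 0.331), and with the replicate block 2 usage and 24 level calls were made between stages and 0 for tetracycline. Between stages the block gave 15 of all 76 genes for usage and 6352 of all 12599 transcripts for levels. For tetracycline in adults, DESeq2 called 2 of 58 transcripts in on-Tc against control and 5 of 58 in post-Tc against on-Tc. Over all 11435 transcripts it called 1141 and 1304. Halved counts called 1 of 47 in post-Tc against on-Tc, against 74 of all 10334. Leaving out a library gave 0 calls in these genes throughout. With a minimum of 10 counts per library, 2 genes had different group leaders, g13916 and g4140, and 1 change was clear, that of g4140 between post-Tc larvae and post-Tc adults, where 0 were clear at 20 counts. The causes were not tested. No direction was reversed. Depth limited the shares: 141 of 180 genes were measurable in no group, and g7508 had 37 counts in 1 adult library.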
